A study of Mus musculus with 278 samples.

Results

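The expression of 10 genes of the Notch pathway was followed through single mouse mammary epithelial cells, to find in which lineage each receptor, ligand and target was transcribed. The genes were taken by name and comprised 3 receptors (Notch1, Notch2 and Notch3), 3 ligands (Jag1, Jag2 and Dll1) and 4 targets (Hes1, Hey1, Heyl and Nrarp). They were 10 of 25135 genes kept in the count files, and all 10 passed the filter of 1 CPM (count of a gene scaled to 1000000 reads of the kept genes) in at least 3 cells. The 278 cells came from FVB/NJ females and were caught singly on Fluidigm C1 chips, each giving 1 RNA-seq library of polyadenylated RNA. Basal cells (CD29hi CD24+) and luminal cells (CD29lo CD24+) were sorted from adult glands after removal of Ter119+, CD31+ and CD45+ blood and endothelial cells, and the third group was the total epithelium of mid-pregnant glands. The labels named no engineered allele and no treatment for any group. They also named no animal, which leaves every group as a single sample, so differences are given without a p-value and have no replicate check. The intervals beside levels and shares are exact 95% intervals, and where no cell qualified the upper limit printed is that of 3 cells; neither covers more than counting error.

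Notch receptors are membrane proteins that are cut when a ligand of the Jagged or Delta family on a neighbouring cell binds and pulls on them. The freed intracellular part enters the nucleus, joins the DNA-binding protein RBPJ and switches on targets such as the Hes and Hey repressors. In the mammary gland the pathway is known chiefly for its part in luminal cell fate, and Notch1 and Notch3 have been used to trace luminal cells.

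Cells with at least 50000 reads were retained. This left 85 of the 112 cells sorted as adult basal, 41 of the 43 sorted as luminal, and 96 of the 123 from pregnancy. Their depth ran from 67170 to 1290736 reads in adult basal, 173150 to 1006261 in adult luminal and 53966 to 790397 in pregnancy cells. For shares of cells with a read, each cell was therefore thinned to 50000 reads. At that depth adult basal cells held a median of 2249 detected genes, against 3421 in adult luminal and 3244 in pregnancy cells. The sort labels were met by the markers in most cells: adult basal cells showed a median of 11 of 12 basal and 2 of 12 luminal markers, and adult luminal cells 0 and 9. At least 7 own and at most 6 other markers were read in 81 of 85 basal and 37 of 41 luminal cells. Adult luminal cell 35 carried 11 basal beside 8 luminal markers. Pregnancy cells were classed by the same markers into 38 basal-like, 27 luminal-like and 25 both-lineage cells (at least 7 markers of each list), and 6 cells fitted none of these classes. The classes are ranges of a marker count, and 13 of 96 cells lay at the limits; the median basal-like cell held 3 luminal markers and the median luminal-like cell 2 basal markers. Both-lineage cells had a median of 255630 reads, against 130540 in basal-like and 240187 in luminal-like cells; whether captures of more than 1 cell had a part in that class was not tested. At least 3 markers of a non-epithelial type (endothelial, pericyte, immune, fibroblast or Schwann) were read in 1 adult basal, 6 adult luminal and 24 pregnancy cells, and values without these cells are given beside the results that they moved most.

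Dll1 and Jag2, the ligands that were higher in basal cells, and Nrarp, a target that was nearly absent from them, are shown first with the 250 bases before their RefSeq start sites. Builds and starts are those of GRCm38.p6, and bases run 5′ to 3′ on the gene's strand. The Dll1 window, before the outer of its 2 listed starts, is chr17:15376933-15377182 on the minus strand. The Jag2 window is chr12:112929496-112929745 on the minus strand, before a listed start that lies inside the gene span (chr12:112907803-112929812). The Nrarp window is chr2:25180508-25180757 on the plus strand, and its capitals mark an E-box.
Dll1: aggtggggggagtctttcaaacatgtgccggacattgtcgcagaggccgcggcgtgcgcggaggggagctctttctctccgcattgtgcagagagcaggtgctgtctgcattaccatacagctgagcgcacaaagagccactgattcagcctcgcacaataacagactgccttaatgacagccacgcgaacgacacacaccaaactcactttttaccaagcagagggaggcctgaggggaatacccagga
Jag2: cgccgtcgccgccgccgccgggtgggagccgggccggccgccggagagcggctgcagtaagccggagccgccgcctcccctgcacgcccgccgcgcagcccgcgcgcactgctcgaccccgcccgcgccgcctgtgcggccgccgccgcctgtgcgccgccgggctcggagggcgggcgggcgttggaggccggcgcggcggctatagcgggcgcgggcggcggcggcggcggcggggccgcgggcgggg
Nrarp: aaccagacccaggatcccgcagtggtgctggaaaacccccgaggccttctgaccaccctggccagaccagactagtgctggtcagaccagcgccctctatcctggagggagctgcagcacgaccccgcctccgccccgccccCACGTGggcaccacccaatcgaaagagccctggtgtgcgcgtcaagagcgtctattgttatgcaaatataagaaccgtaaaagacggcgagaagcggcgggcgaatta

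The RBPJ core TGGGAA, read on either strand, was in 0 of 8 windows, which covered 7 of the members, and in 21.6% of all 32851 windows. No window was available for Hes1, Hey1 and Heyl, so Nrarp was the only target searched. The E-box CACGTG, a palindrome bound by basic helix-loop-helix proteins, was in 1 of the 8 windows, that of Nrarp, with its first base 108 bases before the start, and in 6.02% of all windows. The Jag2 window was 87.2% G and C, against a median of 52.4% over all windows. The Dll1 window shown held 56.0% and the Nrarp window 61.2%. A motif match is a description of these letters and not a binding site.

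In adult cells, receptors and targets had higher levels in the luminal sort, while Dll1 and Jag2 had higher levels in the basal sort. Jag1 was high in both. Of the 10 members, 2 were at least 4-fold higher in adult basal cells, where 14.6% of the 14558 genes compared were, and 4 were at least 4-fold higher in adult luminal cells, against 22.6% of genes. The basal count lay near this background, and the luminal count above it, although 3 of those 4 genes rested on few cells. The median log2 ratio of basal over luminal CPM was -1.47 over the members and -0.34 over all genes compared. Detection pointed the same way for most genes: 8 of 10 members were seen in a larger share of adult luminal than adult basal cells, as were 75.3% of 14114 genes.

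**Figure D1:**
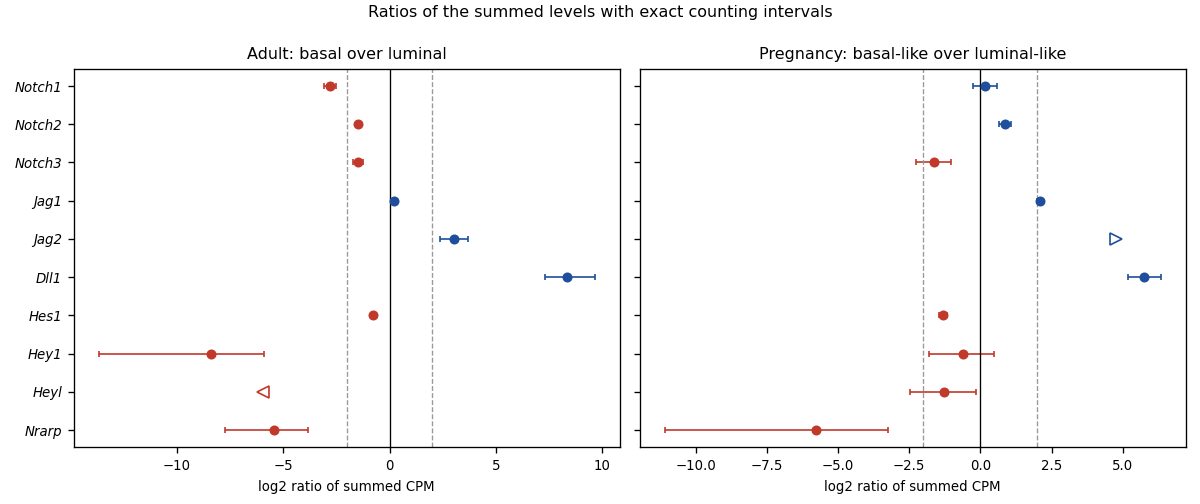
Log2 ratio of summed CPM for each member in the adult (basal over luminal) and pregnancy (basal-like over luminal-like) comparisons, with exact 95% counting intervals as bars, open triangles for bounds where a group held no read, and dashed lines at 4-fold. Dll1 lies far to the basal side in both (8.34 and 5.73), and Hes1 to the luminal side in both (-0.77 and -1.32).

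Notch2, a receptor encoded at chr3:98013538-98150367, carried most of the receptor transcript. Per-cell CPM ran from 0 through a median of 6.20 to 689 in adult basal cells, and from 0 through 93.8 to 1671 in adult luminal cells. The ranges overlapped almost wholly, but 36 of 85 basal cells held no Notch2 read against 1 of 41 luminal cells. After thinning, 44.7% (33.9 to 55.9) of basal and 82.9% (67.9 to 92.8) of luminal cells had a read. Summed over cells, Notch2 stood at 54.2 CPM (51.8 to 56.7) in basal and 149 CPM (144 to 154) in luminal cells, a level 2.75-fold lower in basal cells (log2 -1.46, interval -1.54 to -1.38). Luminal cell 26, which held all 6 fibroblast markers and 4 of 12 luminal markers, gave 19.4% of the luminal reads, and the luminal level without it was 122 CPM. The 6 luminal cells with non-epithelial markers held 33.3% of the group's Notch2 reads and 15.2% of its total reads. Without those 6 the difference was 2.16-fold.

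Notch1 (chr2:26457902-26503822), the receptor best known from T cell development, was low in adult basal cells. It was read in 16 of 85 basal and 18 of 41 luminal cells, so the median cell of each sort held none, and the highest cells held 75.7 and 178.9 CPM. Thinned cells had a read in 7.06% (2.63 to 14.7) of basal and 29.3% (16.1 to 45.5) of luminal cells. The sums gave 3.50 CPM (2.91 to 4.17) against 24.5 CPM (22.6 to 26.5), 7.00-fold lower in basal cells (log2 -2.81, interval -3.10 to -2.53). Luminal cell 34 gave 29.6% of the luminal reads, and 18.0 CPM remained without it. Cells with non-epithelial markers hardly moved the ratio, which was 6.86-fold without them.

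Notch3 (chr17:32120820-32166896), a receptor also made by vascular mural cells, was read in 3 of 85 adult basal and 18 of 41 adult luminal cells. Its summed levels were 5.80 and 16.1 CPM. Basal cell 7, with 6 basal and no pericyte markers, gave 158 of the 207 basal reads (1111 CPM in that cell), and the basal level without it was 1.38 CPM. This cell decided the size of the difference: the log2 ratio was -1.48 over all cells, -3.13 without the leading cell of each group, and 0.38 when each cell's CPM was weighted equally. Thinned detection was 2.35% (0.286 to 8.24) in basal and 24.4% (12.4 to 40.3) in luminal cells.

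In pregnancy cells the receptors did not share 1 direction. Notch2 was read at a per-cell median of 52.9 CPM (0 to 283) in basal-like and 25.0 CPM (0 to 283) in luminal-like cells, with detection in 71.1% and 51.9% of thinned cells. Its summed level was 78.7 CPM (71.8 to 86.0) in basal-like against 43.2 CPM (38.3 to 48.5) in luminal-like cells, 1.82-fold higher in basal-like cells, which is the opposite order to the adult sorts. Notch1 stood at 16.3 CPM in basal-like and 14.5 CPM in luminal-like cells, a ratio whose interval spanned 0 (log2 0.17, -0.25 to 0.59) and whose sign turned under TMM scaling (-0.20). Fewer basal-like than luminal-like cells carried it, 15.8% against 44.4% after thinning. Of the 100 Notch1 reads of basal-like cells, 84 came from the 11 cells with non-epithelial markers, which held 27.6% of that class's reads, and without such cells in either class the log2 ratio was -1.42 (-2.33 to -0.59). Notch3 was 3.11-fold lower in basal-like than in luminal-like cells (5.05 against 15.7 CPM), and luminal-like cell 85 gave 46.2% of the luminal-like reads. Without cells bearing non-epithelial markers the Notch3 difference was 6.35-fold.

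The pregnancy cells also divided by the number in their title. Cells numbered to 55 and above 55 differed in milk protein transcripts (8.89% and 31.4% of reads over 8 milk genes) and in detected genes (medians of 3943 and 2821 at 50000 reads), and the labels name no capture or animal that divides there. The division was taken over from an earlier analysis of these data. All but 1 of the 100 basal-like Notch1 reads fell in cells numbered to 55, and the log2 ratio of basal-like over luminal-like Notch1 was 1.11 in them and -5.49 in those above 55. The pregnancy Notch1 comparison therefore has no single direction in these data. Notch2 was higher in basal-like cells on both sides of the division (log2 0.32 and 1.20). Notch3 stood at 10.6 CPM in basal-like and 12.4 CPM in luminal-like cells numbered to 55 (log2 -0.22), whereas above 55 basal-like cells held no Notch3 read and luminal-like cells 17.2 CPM.

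**Figure D2:**
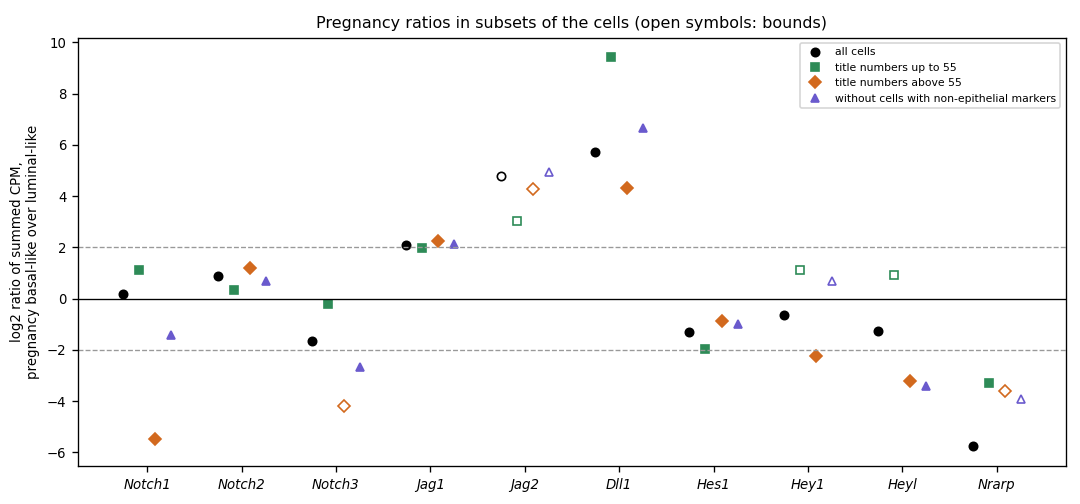
Log2 ratio of summed CPM of each member, pregnancy basal-like over luminal-like cells, in all cells, in cells with title numbers up to 55 or above 55, and without cells bearing non-epithelial markers; open symbols are bounds where a class held no read, and dashed lines mark 4-fold. Notch1 changes sign between the subsets (1.11, -5.49 and -1.42), whereas Jag1 and Dll1 stay above 0 and Hes1 below 0 in each.

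**Figure D3:**
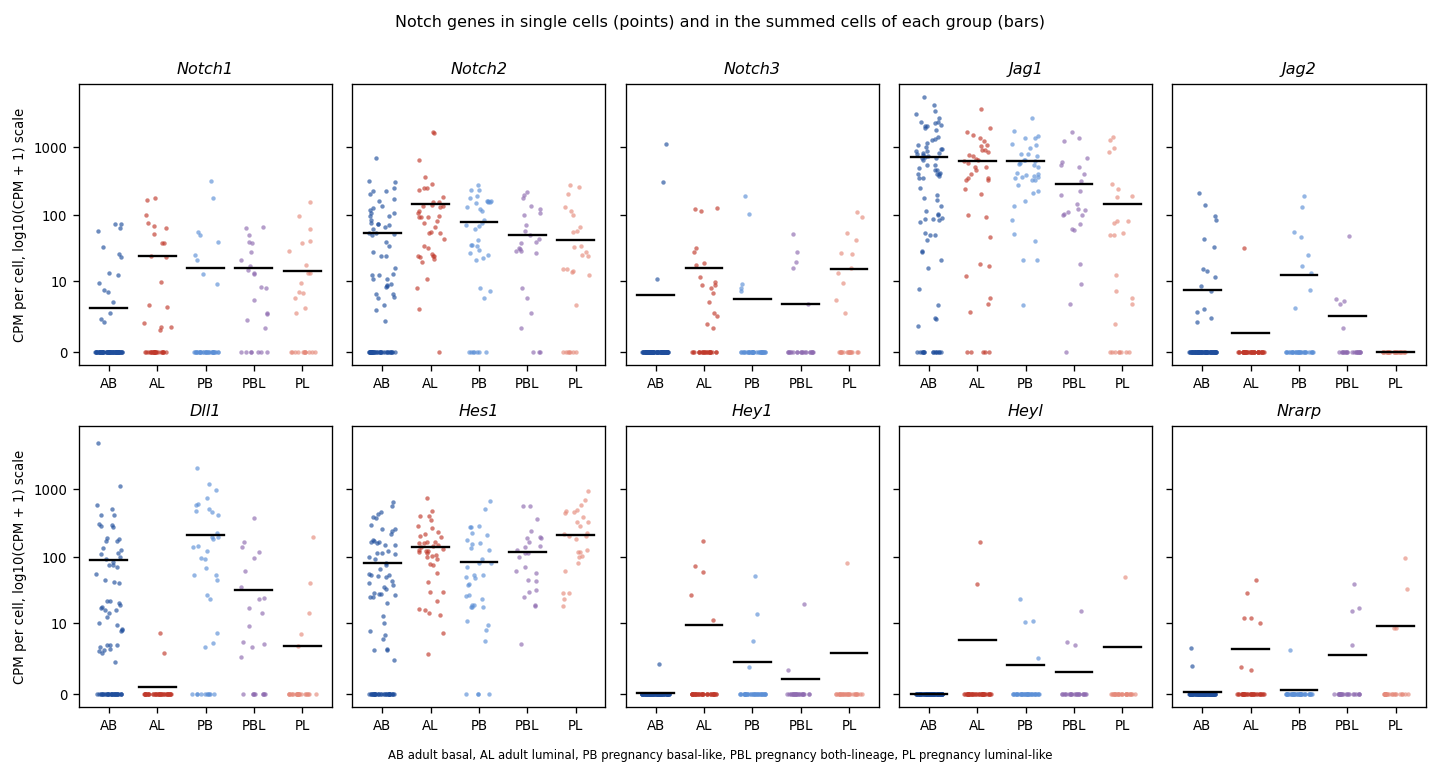
Each point is 1 cell, giving its CPM of a member on a log10(CPM + 1) scale, by group (AB adult basal, AL adult luminal, PB, PBL and PL pregnancy basal-like, both-lineage and luminal-like); the bars mark the CPM of the summed cells. Dll1 reaches 4855 CPM in adult basal cells and at most 6.97 CPM in adult luminal cells, whereas the points of Hes1 and Jag1 overlap between lineages.

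Dll1 (chr17:15367354-15376932), a Delta-family ligand, was the most unequal of the 3 ligands between the adult sorts. Adult basal cells ran from 0 through a median of 7.55 to 4855 CPM, and adult luminal cells from 0 through 0 to 6.97 CPM. Reads were present in 52 of 85 basal and 2 of 41 luminal cells, and 43 basal cells exceeded the highest luminal cell. The luminal total was 7 reads, 5 of them in cell 35, the cell with 11 basal markers. Summed levels were 91.4 CPM (88.3 to 94.6) and 0.282 CPM (0.113 to 0.581), 324-fold higher in basal cells (log2 8.34, interval 7.30 to 9.66). Basal cell 33, with 10 basal markers, gave 20.2% of the basal reads, and 73.2 CPM remained without it. Under the alternatives tried, the adult log2 ratio of Dll1 stayed between 7.06 and 10.11.

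Dll1 was also the ligand that separated pregnancy classes most widely among those read in both. Basal-like cells ran from 0 through 82.6 to 2026 CPM and luminal-like cells from 0 through 0 to 202.6 CPM, and 11 of 38 basal-like cells exceeded the highest luminal-like cell. It was seen in 68.4% (51.3 to 82.5) of thinned basal-like and 11.1% (2.35 to 29.2) of thinned luminal-like cells. The summed level was 217 CPM (205 to 229) against 4.07 CPM (2.69 to 5.93), 53.2-fold higher (log2 5.73, interval 5.19 to 6.34), and 102-fold higher without cells bearing non-epithelial markers. Both-lineage cells lay between, at 33.0 CPM (29.4 to 37.0) and 40.0% of cells. A cell at or above 100 CPM of Dll1 was found in 19 of 85 adult basal, 0 of 41 adult luminal, 17 of 38 basal-like, 4 of 25 both-lineage and 1 of 27 luminal-like cells; 0 of 41 cells allows a share of up to 7.32% (3 of 41).

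Jag2 (chr12:112907803-112929812), a Jagged-family ligand, followed Dll1 at a lower level. It was read in 15 of 85 adult basal cells, at 7.17 CPM (6.32 to 8.10), with a highest cell of 216.7 CPM. In adult luminal cells all 22 reads came from cell 27, which held all 6 endothelial and all 6 fibroblast markers beside 9 luminal markers. The difference was 8.09-fold with that cell and at least 50.3-fold without the cells bearing non-epithelial markers, taking 3 reads over the group as the floor. Basal-like pregnancy cells held 12.4 CPM (9.75 to 15.5) and luminal-like cells no read in 27 cells, which allows a share of up to 11.1% (3 of 27), so the level was at least 27.3-fold higher in basal-like cells. The median cell of every group held no Jag2 read.

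Jag1 (chr2:137081451-137116520), the other Jagged ligand, had the highest RPKM of the members in both adult sorts and in basal-like cells, and was nearly level between the adult sorts. Adult basal cells ran from 0 through 359 to 5499 CPM and adult luminal cells from 0 through 401 to 3699 CPM. The sums were 731 CPM (722 to 740) and 629 CPM (619 to 639), 1.16-fold higher in basal cells (log2 0.22, interval 0.19 to 0.25), with detection in 75.3% and 78.0% of thinned cells; 15 of 85 and 5 of 41 cells held no read at full depth. Without luminal cells bearing non-epithelial markers, which held 31.8% of the luminal reads, the difference was 1.44-fold. In pregnancy the classes parted further. Every one of the 38 basal-like cells held a Jag1 read (3.85 through 409 to 2682 CPM), whereas 8 of 27 luminal-like cells held none (0 through 51.4 to 1445 CPM). Summed levels were 629 CPM (610 to 650) and 148 CPM (139 to 158), 4.25-fold higher in basal-like cells (log2 2.09, interval 1.99 to 2.19). The log2 ratio ran from 1.43 to 3.26 over the alternatives and was under 4-fold with TMM scaling (1.72) and on thinned counts (1.43). Luminal-like cell 85 gave 44.1% of the luminal-like reads, and 89.5 CPM remained without it.

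Hes1 (chr16:30065357-30067796), a transcriptional repressor and the most widely used Notch target, was detected in nearly every luminal cell. Adult basal cells ran from 0 through 25.3 to 660 CPM and adult luminal cells from 2.85 through 124 to 744 CPM. No adult luminal cell lacked a read, and 32 of 85 adult basal cells did; the upper parts of both ranges overlapped. Thinned detection was 50.6% (39.5 to 61.6) and 90.2% (76.9 to 97.3). Levels were 83.2 CPM (80.3 to 86.3) and 142 CPM (137 to 146), 1.70-fold lower in basal cells (log2 -0.77, interval -0.84 to -0.70). Hes1 in pregnancy ran from 0 through 50.5 to 669 CPM in basal-like cells and from 18.7 through 208.5 to 950 CPM in luminal-like cells. The summed level was 2.49-fold lower in basal-like cells (86.7 against 216 CPM; log2 -1.32, interval -1.47 to -1.17), and stayed lower under all 13 alternatives (-1.98 to -0.87). Without cells bearing non-epithelial markers the difference was 1.98-fold. Both-lineage cells again lay between, at 121 CPM (113 to 128).

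The other targets were sparse, and single cells decided their levels. Hey1 (chr3:8663359-8667038), a Hey-family repressor, had 1 read in adult basal cells and 231 in adult luminal cells (0.028 and 9.31 CPM), a log2 ratio of -8.38 with a counting interval of -13.69 to -5.88. Cell 27 gave 51.1% of the luminal reads, the 6 cells with non-epithelial markers gave 76.2%, and without those the log2 ratio was -6.55. In pregnancy, Hey1 held 12 reads in basal-like cells and 20 in luminal-like cells, all 20 in cell 68, which carried 4 endothelial markers. Thinned detection of Hey1 was 7.89% (1.66 to 21.4) in basal-like and 3.7% (0.0937 to 19.0) in luminal-like cells.

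Heyl (chr4:123233556-123249870), a relative of Hey1, had no read in 85 adult basal cells and 130 in 2 adult luminal cells. It was at least 62.4-fold lower in basal cells against the floor, and at least 9.05-fold lower without the cells bearing non-epithelial markers. Luminal cell 43, which held all 6 endothelial and 11 of 12 luminal markers, gave 87.7% of those reads, and 0.662 CPM remained without it. All 26 luminal-like pregnancy reads of Heyl were in cell 85. Basal-like cells held 10 Heyl reads in 4 of 38 cells, 70.0% of them in cell 7. Thinned detection of Heyl was 7.89% (1.66 to 21.4) in basal-like and 3.7% (0.0937 to 19.0) in luminal-like cells.

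Nrarp (chr2:25180758-25183339), which encodes a feedback inhibitor of the Notch complex, had 3 reads in adult basal and 90 in adult luminal cells. They lay in 2 of 85 and 7 of 41 cells, and the log2 ratio was -5.43 with an interval of -7.74 to -3.84. Luminal cell 6 gave 45.6% of the luminal reads. In pregnancy the sums were 1 and 59 reads (log2 -5.77, interval -11.10 to -3.24), but cell 85 gave 84.7% of the luminal-like reads, and without the leading cell of each class basal-like cells held no read and luminal-like cells 1.47 CPM, a log2 ratio of at most -1.52 against the floor. Cell 85 held 9 luminal and 6 basal markers and was the leading luminal-like cell for Notch3, Jag1, Heyl and Nrarp.

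Among adult luminal cells, most Hey1 and Heyl reads lay in cells with endothelial markers, and the part of such cells in these levels was not tested. In adult luminal cells all 6 endothelial markers were read, the summed level per cell ran from 0 to 1340 CPM with a median of 0, and 2 cells held at least 3 of them. Those 2 cells gave 72.3% of the Hey1 and 87.7% of the Heyl reads from 5.39% of the group's reads. Their Heyl reads were all in cell 43, and cell 27, with as many endothelial markers, held no Heyl read. Among all pregnancy cells, those with at least 3 endothelial markers gave 86.8% of the Hey1 and 52.6% of the Heyl reads. None of the Heyl reads of basal-like, both-lineage or luminal-like cells came from them. In adult basal cells Cdh5, Kdr, Emcn and Tie1 were at 0 and the summed level ran from 0 to 361 CPM. Fibroblast markers ran from 0 to 30600 CPM in adult luminal cells, with none of the 6 at 0, and from 0 to 3040 CPM in adult basal cells, with Lum at 0. Of the other endothelium-associated pathway genes in adult luminal cells, all 116 Dll4 and all 111 Hey2 reads came from cells bearing non-epithelial markers. In pregnancy such cells gave all 42 Dll4 reads but 1 of the 34 Hey2 reads. The sort had been set to remove CD31+ cells.

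In pregnancy, 3 of the 10 members (Jag1, Jag2 and Dll1) were at least 4-fold higher in basal-like cells, against 21.1% of the 13870 genes compared, and 1 (Nrarp) was at least 4-fold higher in luminal-like cells, against 11.3%. The basal-like count was thus not far above the background and the luminal-like count near it. The median log2 ratio over the members was -0.23, and that over all genes compared was 0.44. All 3 ligands and none of the receptors or targets passed on the basal-like side; under TMM scaling Jag1 dropped out and Notch3 joined Nrarp, giving 2 and 2. By detection, 6 members were seen in a larger share of basal-like cells and 4 in a larger share of luminal-like cells, where 54.7% of 13983 genes were seen more often in luminal-like cells.

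**Figure D4:**
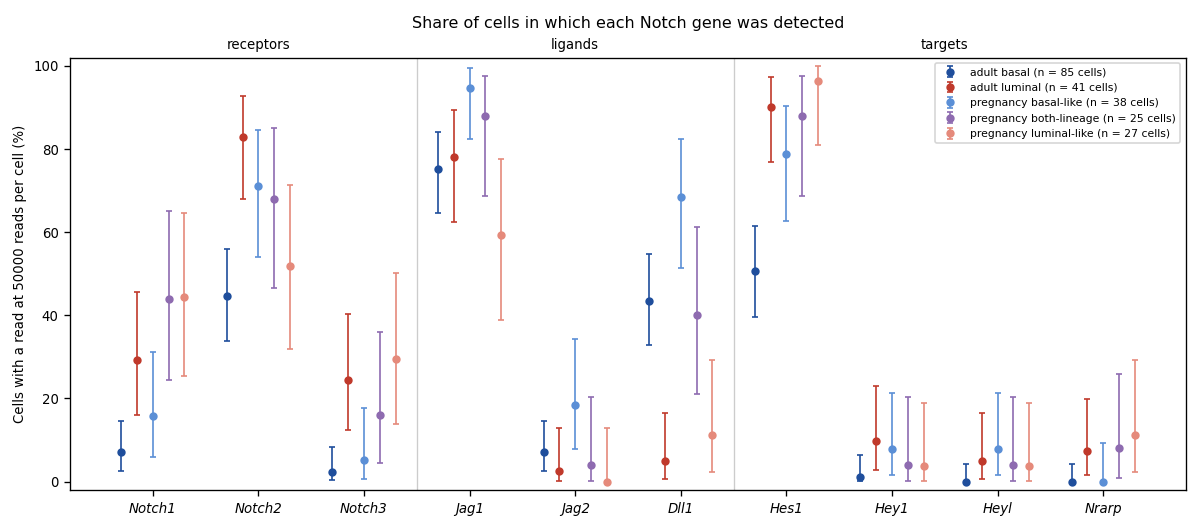
Percent of cells with at least 1 read after thinning to 50000 reads, by member and group, with exact 95% intervals as bars. Dll1 is at 43.5% of adult basal and 4.88% of adult luminal cells and at 68.4% and 11.1% of the pregnancy classes, whereas Hes1 runs the other way (50.6% and 90.2%, 78.9% and 96.3%).

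Levels of different members were compared per length, as RPKM (CPM per kilobase of the gene model in the files). Notch2 made up 82.4% of the summed receptor RPKM in adult basal and 75.5% in adult luminal cells, where the sums were 6.26 and 18.8 RPKM. Among luminal-like pregnancy cells its share was 54.0%, with 26.0% from Notch3 and 20.1% from Notch1. Jag1 made up 82.4% of ligand RPKM in adult basal and 99.7% in adult luminal cells. Dll1 took 16.5% of ligand RPKM in adult basal cells, 0.0717% in adult luminal, 35.0% in basal-like, 15.3% in both-lineage and 4.22% in luminal-like cells. The ligand sum was 162 RPKM in adult basal, 115 in adult luminal, 181 in basal-like, 63.0 in both-lineage and 28.1 in luminal-like cells. Hes1 took at least 93.5% of target RPKM in all 5 groups. On this scale the ratio of summed ligand to summed receptor was 25.9 in adult basal, 18.4 in basal-like, 8.87 in both-lineage, 6.12 in adult luminal and 3.69 in luminal-like cells.

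**Figure D5:**
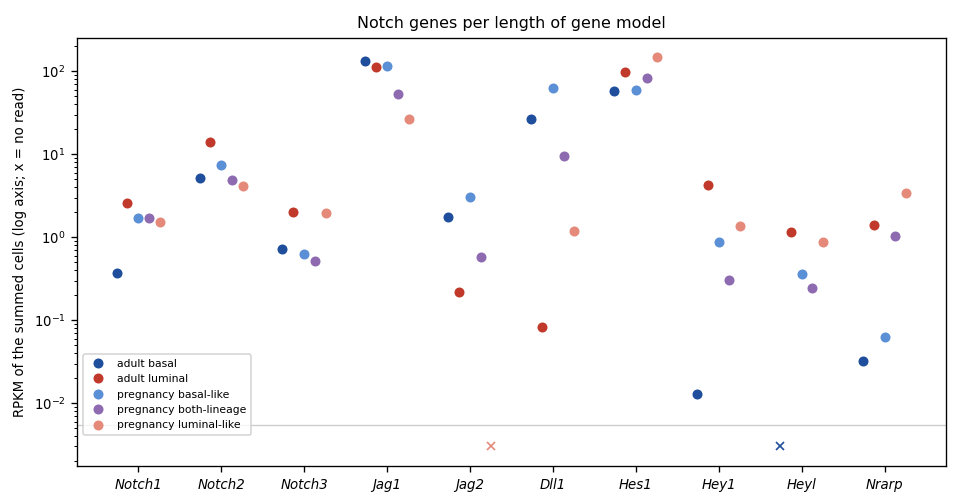
Summed level of each member per length (RPKM, log axis) in the 5 groups, with a cross where a group held no read. Jag1 (26.9 to 133 RPKM) and Hes1 (57.4 to 149 RPKM) stand above Notch2 (4.11 to 14.2 RPKM) in every group, and Dll1 spans 0.0822 to 63.2 RPKM.

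Set in order over the 5 groups by summed CPM, the members fell into different sequences. Dll1 ran from basal-like (217) through adult basal (91.4), both-lineage (33.0) and luminal-like (4.07) to adult luminal cells (0.282), with no neighbouring counting intervals overlapping. Jag1 ran from adult basal (731) through basal-like (629) and adult luminal (629), which overlapped, to both-lineage (290) and luminal-like cells (148). Hes1 ran from luminal-like (216) through adult luminal (142) and both-lineage (121) to basal-like (86.7) and adult basal cells (83.2), of which the last pair overlapped. Notch2 was highest in adult luminal (149), then basal-like (78.7), adult basal (54.2), both-lineage (51.4) and luminal-like cells (43.2), with overlap between adult basal and both-lineage and between both-lineage and luminal-like cells. Notch1 was highest in adult luminal cells (24.5), alike within counting error in the 3 pregnancy classes (14.5 to 16.3) and lowest in adult basal cells (3.50). The pregnancy classes were not alike once cells bearing non-epithelial markers were left out. Notch1 then stood at 3.60 CPM in basal-like, 15.8 CPM in both-lineage and 9.62 CPM in luminal-like cells. With all cells, basal-like Notch1 was 33.9 CPM in cells numbered to 55 and 0.311 CPM above 55. Notch3 formed a higher pair, adult luminal (16.1) and luminal-like (15.7), and a lower trio from 4.14 to 5.80 CPM, with overlap inside each. This order did not hold in pregnancy cells numbered to 55, where Notch3 was at 10.6, 13.0 and 12.4 CPM in basal-like, both-lineage and luminal-like cells, and the adult basal level was 1.38 CPM without cell 7.

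Between stages the sorts differed, and milk transcripts took 0.00068% of adult basal, 1.25% of adult luminal, 5.90% of basal-like and 28.1% of luminal-like reads, so the stages were set side by side only. Basal-like pregnancy cells held 2.37-fold more Dll1 (log2 1.25, interval 1.15 to 1.34) and 4.65-fold more Notch1 (log2 2.22, 1.82 to 2.61) than adult basal cells, the Notch1 value resting on cells numbered to 55. Basal-like Dll1 was 328 CPM in cells numbered to 55 and 116 CPM above 55, beside 91.4 CPM in adult basal cells. Without cells bearing non-epithelial markers, basal-like Notch1 was 3.60 CPM, against 3.50 CPM in adult basal cells. Jag1 was 4.25-fold lower in luminal-like than in adult luminal cells (log2 -2.09, -2.18 to -1.99) and Notch2 3.45-fold lower (log2 -1.79, -1.97 to -1.61). Both differences were smaller with cells bearing non-epithelial markers left out. Jag1 then stood at 154 CPM in luminal-like and 506 CPM in adult luminal cells, and Notch2 at 42.7 and 117 CPM. Hes1 was 1.53-fold higher in luminal-like than adult luminal cells, at 332 CPM in luminal-like cells numbered to 55 and 162 CPM above 55. Without cells bearing non-epithelial markers its levels were 177 and 142 CPM. It differed by 1.04-fold between basal-like and adult basal cells with an interval spanning 0 (log2 0.06, -0.08 to 0.19).

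Within adult luminal cells, 16 progenitor-like and 23 mature-like cells were parted by 10 markers of each kind (2 cells tied), although 15 of 41 lay within 2 markers of a tie. Hes1 was 1.09-fold higher in progenitor-like cells, and the Notch1 interval spanned 0 (log2 0.18, -0.08 to 0.45). The summed Jag1 levels were close (634 and 665 CPM), but cell 27 gave 47.5% of the progenitor-like reads. The per-cell Jag1 median was 70.7 CPM in progenitor-like and 515 CPM in mature-like cells, detection was 62.5% and 87.0%, and the log2 ratio was -0.07 over all cells and -1.12 without those bearing non-epithelial markers. Notch3 was 5.58-fold lower in progenitor-like than in mature-like cells (log2 -2.48, interval -3.03 to -1.97), and stayed lower under all 10 alternatives. It was the 1 member at least 4-fold higher in mature-like cells, against 19.7% of 13084 genes. On the progenitor-like side 3 members passed 4-fold, against 14.0% of genes. Jag2, Hey1 and Heyl made up this count, with all Jag2 reads in cell 27, and Hey1 turned to the mature-like side without the cells bearing non-epithelial markers (log2 2.42 with them, -1.10 without). Cell 27 also gave 86.8% of the progenitor-like Hey1 reads. All 16 progenitor-like Heyl reads came from cell 3, and mature-like cells held no Heyl read. The median log2 ratio was 0.03 over the members and -0.16 over all genes compared.

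Cells were also counted by which roles they carried at 50000 reads. At that depth adult basal cells held fewer detected genes than adult luminal cells (medians of 2249 and 3421). Of 14114 genes, 75.3% were seen in a larger share of adult luminal cells, so the adult shares below stand beside that background. Any of the 3 receptors was read in 49.4% (38.4 to 60.5) of adult basal and 90.2% (76.9 to 97.3) of adult luminal cells, and in 80.0% to 81.6% of the 3 pregnancy classes. Any ligand was read in 83.5% of adult basal, 78.0% of adult luminal, 94.7% of basal-like, 92.0% of both-lineage and 63.0% of luminal-like cells. Dll1 or Jag2 was read in 47.1% (36.1 to 58.2) of adult basal, 4.88% (0.596 to 16.5) of adult luminal, 76.3% (59.8 to 88.6) of basal-like and 11.1% (2.35 to 29.2) of luminal-like cells. Receptor, ligand and target were read together in 27.1% of adult basal, 63.4% of adult luminal, 65.8% of basal-like and 48.1% of luminal-like cells, so co-detection of all roles was common within single cells of both lineages. None of the 10 was read in 4 of 85 adult basal cells and in 0 of 41 adult luminal cells, with the same limit of 7.32%.

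Across the 96 pregnancy cells, all at 50000 reads, Dll1 and Jag1 were higher in cells with more basal markers (Spearman 0.53 and 0.51) and Hes1 in cells with more luminal markers (0.43). These are descriptions over cells of shared class make-up, and the labels do not say which of them share a capture or an animal. Between members, Notch1 and Hes1 were correlated at 0.44 over the 96 cells and 0.51 within the 27 luminal-like cells, and 31 cells held both where independence would give 27.7. In the adult sorts the same pair gave 0.04 (luminal) and -0.14 (basal). Pregnancy cells with non-epithelial markers held 49.7% of Notch1 and 30.3% of Hes1 reads, from 20.9% of all pregnancy reads. The correlation of this pair without those cells was not computed. Dll1 and Notch2 gave 0.38 within basal-like cells and 0.3 over the 96 cells. The same pair gave 0.17 in both-lineage, 0.08 in luminal-like and 0.06 in adult basal cells. In adult luminal cells, where 2 cells held Dll1, it gave 0.26. In adult basal cells Dll1 and Jag1 occurred in the same cell about as often as independence would give (30 cells against 27.9), as did Jag1 and Notch2 in adult luminal cells (26 against 26.5).

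The rest of the pathway was taken as a list of 59 genes (fringe and glycosylation enzymes, receptor-cleaving proteases, ligand-endocytosis factors, the nuclear complex, corepressors, inhibitors and further ligands, receptors and targets). Of its 50 genes with an adult ratio, 6 (12.0%) were at least 4-fold higher in basal and 9 (18.0%) in luminal cells, both below the shares of all genes (14.6% and 22.6%), with a median log2 ratio of -0.19 beside -0.34 for all genes. Adam10, the protease that makes the first ligand-dependent cut of Notch, stood at 7.92 CPM in adult basal and 153 CPM in adult luminal cells, 19.3-fold lower in basal cells, with a read in 5.88% and 78.0% of cells. Psen2, a gamma-secretase subunit, was 16.3-fold lower in basal cells (1.68 against 27.4 CPM). The ubiquitin ligase genes Dtx3l and Dtx4 were 4.48-fold and 5.41-fold lower in basal cells. Notch4, a receptor of endothelium, had no read in adult basal cells and 31 in adult luminal cells, 80.6% of them in cell 43. On the basal side, the corepressor gene Tle1 was 6.13-fold and the Numb relative Numbl 7.18-fold higher, and Mib1, an E3 ligase that activates ligands, 4.49-fold higher. Poglut1, which adds O-glucose to Notch, was 6.47-fold higher in basal cells although it was read in a like share of cells (30.6% and 29.3%). Rbpj, the DNA-binding partner of Notch, stood at 47.5 CPM in adult basal and 44.8 CPM in adult luminal cells, but luminal cell 26 gave 40.6% of the luminal reads, and without the leading cell of each sort the levels were 36.8 and 27.1 CPM. Rbpj was read in 41.2% and 24.4% of thinned cells. Lfng, a fringe glycosyltransferase, was scarce in both (0.084 and 1.17 CPM).

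In pregnancy 13 of 51 listed genes (25.5%) were at least 4-fold higher in basal-like and 4 (7.84%) in luminal-like cells, beside 21.1% and 11.3% of all genes, with a median log2 ratio of 0.67 beside 0.44 for all genes; under TMM scaling the counts were 9 and 6. Rbpj was 4.67-fold higher in basal-like cells (36.7 against 7.85 CPM), and the coactivator gene Maml3 9.71-fold higher. Tle1 (9.04-fold) and Numbl (4.21-fold) were higher in basal-like cells, and Dtx3l (4.46-fold) and Dtx4 (8.61-fold) in luminal-like cells, each in the direction seen in the adult sorts. Kat2b, a histone acetyltransferase gene, was 4.58-fold lower in adult basal than luminal cells but 4.01-fold higher in basal-like than luminal-like cells (3.38-fold without the leading cell of each class). Hes6, a Hes relative, was 4.59-fold lower in basal-like cells, and Dtx2 8.80-fold lower. The fringe gene Rfng (7.44-fold) and Dtx3 (8.02-fold) were higher in basal-like cells. Single cells gave 41.3% of the basal-like Maml3 reads, 45.2% of Rfng, 50.0% of Dtx3 and 63.2% of the luminal-like Dtx2 reads. Between adult luminal subsets 3 of 47 listed genes (6.38%) were at least 4-fold higher in progenitor-like and 9 (19.1%) in mature-like cells, beside 14.0% and 19.7% of all genes, among them Ncstn, a gamma-secretase subunit, at 42.6-fold lower in progenitor-like cells (1.70 against 72.4 CPM). Rfng, Pofut1, Aph1b, Maml3, Spen and Tle2 were also past 4-fold on the mature-like side, and Tle1 (5.09-fold) on the progenitor-like side; single cells gave 53.2% of the higher subset's reads for Rfng, 60.8% for Aph1b, 63.4% for Maml3, 57.7% for Tle2 and 54.8% for Tle1.

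The genes whose pattern over the 222 retained cells was most like a member's were sought among 7909 genes by Spearman correlation of thinned counts. Dll1 was most like Tgfbr3, 1600014C10Rik and Sparc (each 0.45), and Hes1 most like Plet1 (0.43), Krt19 (0.42) and Tmprss13 (0.39). Jag1 was most like Rbms3 (0.39), Marcks (0.37) and Kitl (0.36), and Notch3 most like Cecr2 (0.40). Notch1 was most like Thrsp (0.38), Rbp7 (0.37) and Ctns (0.36). No gene passed 0.29 with Notch2, for which Ccl7 was first. Jag2, Hey1, Heyl and Nrarp were in too few cells for this. The points shared the group structure, the labels do not say which cells share a capture or an animal, and no p-value is given.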

How the data were processed

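Gene counts were measured in 278 single cells. For each cell the authors deposited unnormalized counts, the read pairs assigned to every Entrez gene. The submitters' processing notes name Subread 1.4.6, featureCounts and mm10, and the study's methods give Rsubread's own RefSeq gene models. Reads of FVB/NJ mice were mapped to a reference of another strain. The C1 protocol used no molecular identifiers, so amplification copies are counted, and the authors inspected capture sites by eye; no doublet caller was run here. A series-wide table with identical counts was set aside. From 27179 gene IDs, 1904 without a symbol (1.20% of reads), 15 mitochondrial (9.54%) and 125 ribosomal (1.72%) genes were removed, leaving 25135, of which 15312 passed 1 CPM in at least 3 cells. Cells with under 50000 reads were dropped.

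Groups came from the sample labels. Counts were summed over cells and divided by the summed reads (CPM). Levels carry exact Poisson intervals, shares Clopper-Pearson intervals, and ratios exact conditional intervals; where a sum was 0, 3 counts over the group served as the floor. With 1 sample per group no test was run, and genes were compared by a fixed rule of at least 4-fold. Cells were thinned at random to 50000 reads, and pregnancy cells classed by 12 basal and 12 luminal markers (at least 7 of the own list and at most 6 of the other). Named genes were the 10 members, the listed pathway genes past 4-fold and read in at least 10% of thinned cells of the higher group, Rbpj, Lfng, Adam10 and Notch4, and the 3 most similar genes per member. A listed gene that met this rule is not reported here. Dll4, Hey2 and single cells were named after their values were seen. The members and lists were chosen with earlier results of these data known. Promoter sequences came from RefSeq (GRCm38.p6). Retained cells held 53966 to 1290736 reads. The intervals count reads only and leave out the spread between cells. The alternatives tried were other depths, scalings, weights, classes and fold limits, and leaving out single cells or cells bearing non-epithelial markers. The ratio script was tested on simulated counts with known fold changes. These held counting error but no other spread between cells, so the test does not cover that spread. Tools were Python 3.11.15, numpy 2.4.6, scipy 1.17.1, pandas 2.3.3, matplotlib 3.10.9, R 4.3.3, edgeR 4.0.16 (TMM scaling) and DESeq2 1.42.0 (median-of-ratios scaling).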

Additional observations from a re-analysis of the deposited data

How the results depend on the processing

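No paired analysis was possible because cell numbers only name cells, no animal is given and no test was run. Of 138 alternative values of counts and medians, 113 stayed alike, as a count near the reported one or a median inside the members' counting intervals. Of 321 alternative member ratios, 293 stayed on their side of the 4-fold limit. Ratios under that limit were not held to a sign in this count. Some changed it, such as adult Notch3 with -1.48 as reported and 0.38 as the highest alternative. The adult count of members at least 4-fold higher in basal cells was 2 under every alternative. TMM and median-of-ratios scaling shifted all adult log2 ratios by 0.30 and all pregnancy ratios by -0.37, which moved the adult median over members from -1.47 to -1.17 under both; leaving out the leading cell of each gene moved it to -1.95. In the wider list, equal weight per cell left 3 of 6 basal-higher adult genes, and a 2-fold limit raised the luminal-higher count from 9 to 18. The count of members higher in luminal-like pregnancy cells, 1 as reported, was 2 under TMM, under median of ratios, with at least 100000 reads and without milk genes, 4 at 2-fold, 5 in cells numbered above 55, and 0 without leading cells and with stricter classes. The pregnancy median of -0.23 was 0.66 with stricter classes, 1.03 in cells numbered to 55 and -1.56 above. Among luminal subsets, the progenitor-like count of 3 was 0 on thinned counts and 1 without leading cells, the mature-like count of 1 was 2 without cells at most 2 markers apart, and the median of 0.03 was -0.37 without leading cells. Among alternatives chosen after seeing the data, leaving out cells with non-epithelial markers gave 3 for the pregnancy luminal-like count, 1 and 2 for the progenitor-like and mature-like counts, -0.16 for their median, and reversed Hey1 between the subsets from 2.42 to -1.10; another random draw in thinning gave 3 for the luminal-like count. Beyond these constructions, the cause was not tested. Depth limits Hey1, Heyl and Nrarp, each under 10 CPM in adult basal, adult luminal and the 3 lineage classes of pregnancy. Single-cell shares of listed pathway genes, and their levels without leading cells, were added after seeing the data.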

Other observations

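The 6 pregnancy cells that fell in no lineage class were left out of the comparisons, and 5 of them carried at least 3 markers of a non-epithelial type. Their summed levels were 34.2 CPM for Notch1, 68.3 CPM for Notch2, 38.2 CPM for Notch3, 294 CPM for Jag1, 62.3 CPM for Dll1, 129 CPM for Hes1 and 30.8 CPM for Nrarp. Single cells gave most of several of these: cell 55, with 6 endothelial markers, held 87.7% of the Notch3 reads and all 11 Jag2 reads, cell 18, with 5 endothelial and 6 fibroblast markers, held all 51 Heyl reads (34.2 CPM), and cell 56 held all 93 Dll1 reads. Hey1 had no read in these cells.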
